A study of Drosophila melanogaster with 12 samples.

Results

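The larval cuticle protein genes Lcp1, Lcp2, Lcp3, Lcp4 and Lcp9 were followed through rRNA depletion and through both kinds of sequencing library. They were chosen by exact gene symbol, with no measured value or threshold in the rule, and all 5 were found among the 17806 genes of the deposited tables other than spike-ins. The family was put forward with earlier results of the same libraries known, so the tests here describe these libraries and are not independent evidence.

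Total RNA came from wild-type Oregon-R Drosophila melanogaster raised at 25 °C, as 3 samples of whole wandering third-instar larvae with 40 larvae pooled in each. RNA was either used as it was (input) or mixed with biotinylated antisense oligonucleotides that pull rRNA out on streptavidin beads (depleted, the Ribo-Pop procedure), and synthetic spike-in RNAs of 7 SIRV genes had been added before the depletion. Both kinds of RNA were made into random-primed libraries (NEBNext Ultra II Directional), which give reads along the whole transcript, and into poly(A)-primed libraries (QuantSeq 3′ FWD), which give reads near the 3′ end. The 4 groups of 3 libraries were therefore poly(A)-primed input, poly(A)-primed depleted, random-primed input and random-primed depleted, with no treatment of the animals. In these whole-animal pools, fewer epidermal cells and less RNA per epidermal cell cannot be told apart.

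Insect cuticle is a layered matrix of chitin fibres and protein secreted by the epidermis, and most of its structural proteins carry the Rebers and Riddiford consensus, a chitin-binding sequence. The Lcp proteins are such structural proteins of the soft larval cuticle and were first recognised as the major soluble proteins of third-instar cuticle. Their genes are made strongly by the epidermis of late larvae and are shut off as the animal turns to pupal cuticle.

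Lcp1 to Lcp4 formed a compact cluster on chromosome arm 2R, within 8381 bases in BDGP6.54 coordinates. Lcp1 (FBgn0002531) occupied 8430115 to 8431243 and Lcp2 (FBgn0002533) 8433797 to 8434785, both on the minus strand. Lcp3 (FBgn0002534) occupied 8435310 to 8436095 and Lcp4 (FBgn0002535) 8437647 to 8438495, both on the plus strand. The cluster thus holds a minus-strand pair and a plus-strand pair that point away from each other. Lcp9 (FBgn0025578) lay elsewhere on the same arm, at 24779979 to 24780428 on the minus strand. Its 3′ end overlaps the antisense RNA gene asRNA:CR44067 by a few bases, and the counting used strand. Each gene had 2 exons with a short intron of 56 to 64 nt, and the coding parts ran from 276 nt in Lcp9 to 390 nt in Lcp1. Lcp1 to Lcp4 each had 2 annotated transcripts that differ in their untranslated ends, and Lcp9 had 1.

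Between Lcp1 and Lcp2 the annotation places the pseudogene Lcp1Psi, at 8432886 to 8433384. It took almost none of the reads, with HTSeq counts of 0, 5 and 1 in poly(A)-primed input and 0 in each of the depleted libraries. Kallisto gave it 0 to 5 estimated counts over the 12 libraries. The nearest protein-coding genes on each side were also low. CSN7, a subunit of the COP9 signalosome, averaged 24.1 CPM (counts per 1000000 counts, from Kallisto estimated counts with rRNA and spike-in counts left out of the total) and Cyp4ad1, a cytochrome P450, averaged 27.8 CPM in poly(A)-primed input. Beside Lcp9, the histone methyltransferase gene egg averaged 15.5 CPM and the gene CG3594 averaged 4.91 CPM. The cuticle genes therefore stood far above their neighbours, by a wider margin in the cluster than at Lcp9.

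Lcp3 was the most abundant of the family in poly(A)-primed input, at 35915, 30228 and 29967 CPM in replicates 1 to 3. It ranked 2 among 13883 protein-coding genes in each of these libraries. Lcp4 followed with 16085, 15376 and 12158 CPM and ranks of 3 to 7. Those ranges did not overlap, so Lcp3 stood above Lcp4 in this group.

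Lcp2 had 7917, 7707 and 6045 CPM in the poly(A)-primed input libraries. Lcp1 had 7292, 7153 and 5848 CPM in the same libraries. The ranges of these paralogs overlapped, although Lcp2 was the higher of the pair in each single library. Lcp9 was far lower, at 240, 232 and 133 CPM, and ranked between 450 and 716. Together the 5 genes supplied 6.39% ± 0.657 (SD, n = 3) of all protein-coding counts in poly(A)-primed input.

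In poly(A)-primed depleted libraries the family's share of protein-coding counts was 4.68% ± 0.811 (SD, n = 3). Single libraries held 5.41, 4.83 and 3.81% after depletion against 7.08, 6.34 and 5.77% before it, so the groups did not overlap. In random-primed libraries the share was 1.75% ± 0.175 in input and 1.67% ± 0.195 in depleted RNA (SD, n = 3 each), and these groups overlapped. The share of the family was thus lower after depletion in one library type and nearly level in the other.

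**Figure D1:**
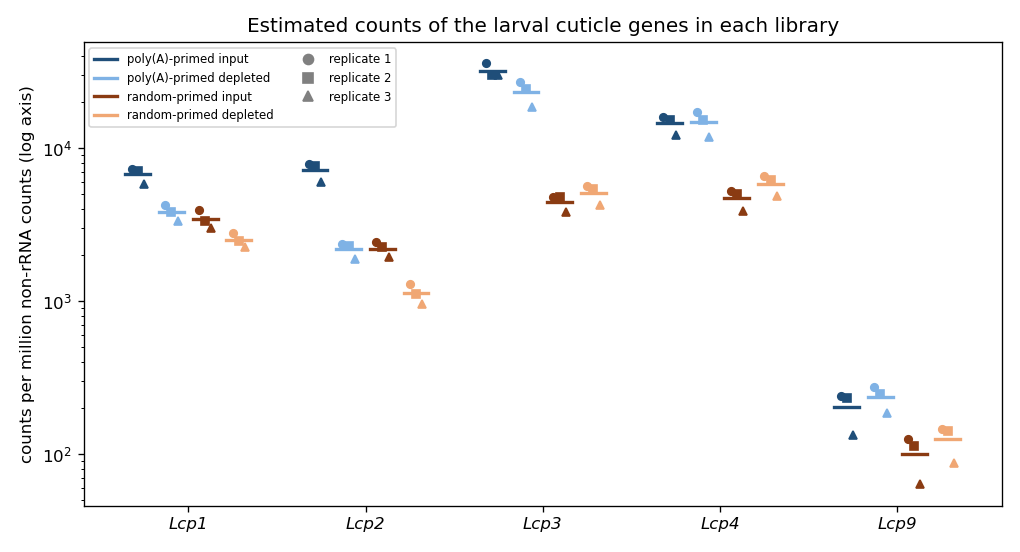
CPM of estimated counts (y axis, log scale) of the 5 genes in each of the 12 libraries. Points are single libraries, with the shape giving the replicate number, and bars are means of 3 libraries. Lcp3 lies near 32037 in poly(A)-primed input and near 4469 in random-primed input, and the replicate 3 library is the lowest of its group for every gene.

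Levels of different genes can be compared in the random-primed libraries once transcript length is taken out, as TPM (transcripts per 1000000 transcripts) rescaled over non-rRNA genes. In random-primed input, Lcp4 had 9589, 9418 and 5970 TPM and Lcp3 had 9207, 9506 and 6186 TPM. These overlapped throughout, and both genes ranked 2 or 3 among protein-coding genes. Lcp1 came next with 7106, 6239 and 4540 TPM. Its range still overlapped those of Lcp3 and Lcp4, although Lcp1 was below both in each single library. The range of Lcp1 lay above that of Lcp2 (4388, 4171 and 2989 TPM). Lcp9 was last with 317, 291 and 134 TPM. Per length, then, Lcp3 and Lcp4 were nearly level, Lcp1 was lower in each single library, and Lcp2 and Lcp9 lay below all of them.

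After depletion the random-primed order was the same in the means, with 11127 ± 2518 TPM for Lcp4, 10288 ± 2265 for Lcp3, 4702 ± 809 for Lcp1, 2120 ± 458 for Lcp2 and 332 ± 107 for Lcp9 (SD, n = 3 each). Lcp3 and Lcp4 again overlapped. Lcp1 was again below both in each single library. Its range now lay below both of theirs, since its highest library had 5434 TPM and the lowest library of Lcp3 had 7682 TPM. Lcp2, at 1629 to 2536 TPM, did not overlap with Lcp1, whose lowest library had 3834 TPM.

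Intronic counts of these genes were close to nil. The Kallisto index held introns as well as spliced transcripts, and introns took at most 0.0598% of a member's estimated counts in any library. Over all protein-coding genes the intronic share averaged 8.38% in random-primed depleted libraries and 2.23% in poly(A)-primed input. Nearly all counts of the family therefore fell on spliced RNA, as far as introns of this size can show.

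Depth limited the random-primed input values most. rRNA took 96.2 to 97.3% of estimated counts there, which left 428039 to 596423 counts on other genes, against 9037947 to 12422418 in random-primed depleted libraries. The poly(A)-primed libraries held 2495307 to 5709119 non-rRNA counts. For Lcp9 this meant 70, 67 and 27 estimated counts in random-primed input and 1818, 1698 and 791 after depletion. For Lcp3, the same step went from 2654, 2867 and 1638 to 70018, 65488 and 38282 estimated counts. Depletion thus raised the reads behind each gene by more than an order of magnitude in this library type, whatever its effect on the relative level.

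Whether the depletion step itself changed the measured levels was asked with the poly(A)-primed libraries, which can be compared before and after depletion at like depth. Lcp2 and Lcp1 were lower in depleted than in input RNA, Lcp3 was lower without passing the test, and Lcp4 and Lcp9 lay close to their input level. In the fit the level after depletion was 0.262 times the input level for Lcp2 and 0.494 times for Lcp1.

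Lcp2 had 34912, 45789 and 20492 unique HTSeq counts in the poly(A)-primed input libraries. It had 9946, 9235 and 4803 in the depleted ones, so even the highest depleted library held fewer reads than the lowest input library. The log2 fold change was -1.93 ± 0.17 (SE), a 3.82-fold lower level, with an adjusted p of 2.6e-05 in the quasi-likelihood test of edgeR, adjusted over 9530 genes by Benjamini and Hochberg. Only 27 tested genes had a lower fold change. Lcp1 had 34282, 44666 and 21135 counts in input and 19514, 16269 and 9144 in depleted libraries, again without overlap. Its log2 fold change was -1.02 ± 0.17 (SE), with an adjusted p of 0.0033 by the same test.

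Lcp3 had 163488, 182330 and 103984 counts in input and 118962, 99342 and 48689 in depleted libraries. The counts overlapped, and as CPM of HTSeq counts the groups were apart, at 31367 to 38003 before and 19394 to 28649 after depletion. The log2 fold change of -0.65 ± 0.18 (SE) missed the threshold of 0.01, with an adjusted p of 0.052 in edgeR's test. Lcp4 had 73968, 93925 and 42796 counts in input and 77017, 63112 and 31171 in depleted libraries. Its log2 fold change was -0.17 ± 0.18 (SE) with an adjusted p of 0.64 in edgeR's test, and its CPM overlapped entirely. Lcp9, with 1097, 1448 and 489 counts before and 1230, 1065 and 513 after, had a log2 fold change of 0.04 ± 0.21 (SE) and an adjusted p of 0.93 by the same test.

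At the threshold of adjusted p under 0.01, 2 of the 5 members were called, both lower, where the share called lower over all tested genes was 1.53% (146 of 9530, with 11 called higher). The median log2 fold change was -0.65 over the members and 0.02 over all tested genes. With the replicate number as a block, Lcp3 was also called, at -0.67 and an adjusted p of 2.9e-06 in edgeR's test, while Lcp4 (0.20) and Lcp9 (0.71) were not, and 7.94% of all tested genes were called lower in that fit. Lcp1 was no longer called when depleted replicate 1 (adjusted p = 0.016), depleted replicate 2 (0.034), input replicate 1 (0.043) or input replicate 2 (0.012) was left out, nor with spike-in scaling (0.054), whereas Lcp2 was called in all of these edgeR fits. The direction for Lcp4 depended on the scale, since its mean CPM was 1.02 times as high after depletion while the fit gave a slight decrease.

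**Figure D2:**
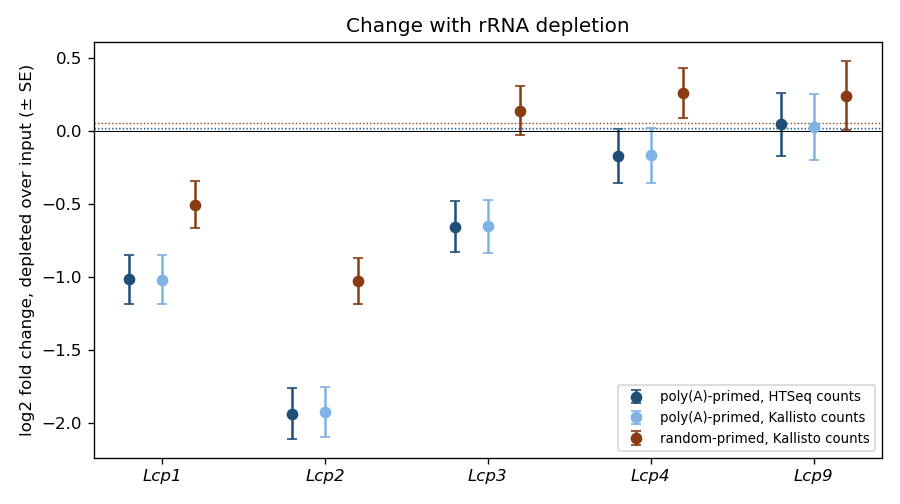
Log2 fold change of depleted over input libraries for each gene (y axis) with its standard error, in poly(A)-primed libraries from HTSeq and from Kallisto counts and in random-primed libraries from Kallisto counts. Dotted lines are the medians over all tested genes, near 0.02 and 0.06. Lcp2 is the lowest in all 3 fits, at -1.93, -1.92 and -1.03.

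The same comparison on Kallisto estimated counts tested whether the treatment of shared reads mattered. Lcp1 and Lcp2 are closely similar paralogs, and reads that match both are dropped by unique counting and divided by Kallisto. Such sharing showed in estimates that were not whole numbers, as 31527.8 for Lcp1 and 34228.2 for Lcp2 in poly(A)-primed input replicate 1. The log2 fold changes were -1.02 for Lcp1, -1.92 for Lcp2, -0.65 for Lcp3, -0.17 for Lcp4 and 0.03 for Lcp9, each within 0.02 of the value from HTSeq counts. Again 2 of 5 members were called, beside 1.45% of 9880 genes called lower.

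The ratio of HTSeq to Kallisto counts in poly(A)-primed input was 1.09 ± 0.0032 for Lcp1 and 1.03 ± 0.011 for Lcp2 (SD, n = 3 each). After depletion it was 1.09 ± 0.010 and 1.02 ± 0.020. Lcp3, Lcp4 and Lcp9 lay between 1.05 and 1.10 in both groups. The median over 8653 protein-coding genes with at least 10 counts was 1.05, with 10th and 90th percentiles of 0.766 and 1.14. All 5 genes thus lay within these percentiles in poly(A)-primed input, although the division of shared reads between Lcp1 and Lcp2 is uncertain.

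In random-primed libraries, Lcp2 was again lower after depletion and Lcp1 pointed the same way, while Lcp3, Lcp4 and Lcp9 had values slightly above input. Lcp2 had 2424, 2245 and 1952 CPM in input and 1293, 1113 and 964 CPM in depleted libraries, with no overlap. The log2 fold change was -1.03 ± 0.16 (SE), a 2.04-fold lower level, with an adjusted p of 0.0032 in edgeR's quasi-likelihood test over 10893 genes. Lcp1 had 3932, 3362 and 3003 CPM in input and 2781, 2463 and 2261 in depleted libraries. These groups did not overlap either, but the log2 fold change of -0.51 ± 0.16 (SE) did not pass, with an adjusted p of 0.19 in edgeR's test.

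Lcp3 had 4772, 4807 and 3827 CPM in random-primed input and 5636, 5422 and 4236 in depleted libraries. Lcp4 had 5272, 4991 and 3906 CPM in input and 6569, 6157 and 4845 in depleted libraries. Lcp9 had 126, 112 and 63.1 CPM in input and 146, 141 and 87.5 in depleted libraries. In each of these the groups overlapped, and the log2 fold changes of 0.14 ± 0.17, 0.26 ± 0.17 and 0.24 ± 0.24 (SE) had adjusted p-values of 0.82, 0.65 and 0.78 in edgeR's test.

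Thus 1 of 5 members was called, beside 1.44% of 10893 genes called lower and 1 gene called higher. The median log2 fold change was 0.14 over the members and 0.06 over all tested genes. With the replicate number as a block, 3 members passed the threshold in edgeR's test, beside 4.93% of all tested genes in either direction. Lcp2 had an adjusted p of 5.9e-11, Lcp1 was lower at -0.50 with an adjusted p of 2.2e-07, and Lcp4 was higher at 0.26 with an adjusted p of 1e-04. DESeq2 without the block called Lcp1 as well (adjusted p = 0.0042), beside 2.42% of its 13397 genes called lower. The call of Lcp2 was lost without depleted replicate 1 (adjusted p = 0.016), depleted replicate 2 (0.018), input replicate 1 (0.050) or input replicate 2 (0.022), and with spike-in scaling (0.12). Spike-in scaling moved the median of all genes by -0.16 on the log2 scale and took Lcp3 to -0.014.

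Libraries with the same replicate number gave close ratios of depleted to input CPM. For Lcp2 in poly(A)-primed libraries these were 0.298, 0.298 and 0.312, whereas pairs of unlike number ran from 0.238 to 0.390. For Lcp4 in random-primed libraries the same-numbered ratios were 1.25, 1.23 and 1.24, against 0.919 to 1.68 over unlike numbers. Lcp3 was below 1 in each same-numbered poly(A)-primed pair (0.756, 0.806 and 0.618) and above 1 in each random-primed pair (1.18, 1.13 and 1.11). Lcp9 was above 1 in every pair of either library type, from 1.07 to 1.39. In all 10 cases the same-numbered ratios had a narrower range than those over unlike numbers. There are more unlike pairs, which by itself widens their range, and the 10 cases share libraries.

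Because all 5 genes are read from the same library, ratios between them do not depend on the scaling of the library. Lcp2 over Lcp1 was 1.09, 1.08 and 1.03 in poly(A)-primed input and 0.551, 0.601 and 0.562 after depletion. In random-primed libraries the ratio was 0.616, 0.668 and 0.650 in input and 0.465, 0.452 and 0.426 after depletion. The groups did not overlap in either library type, and in both cases Lcp2 lost more than its neighbour. The exact two-sided permutation test gave p = 0.1 each time, the smallest value that 3 against 3 libraries allow.

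Lcp4 over Lcp3 went from 0.448, 0.509 and 0.406 to 0.640, 0.629 and 0.636 in poly(A)-primed libraries. In random-primed libraries it went from 1.10, 1.04 and 1.02 to 1.17, 1.14 and 1.14. Lcp4 over Lcp1 went from 2.14 ± 0.063 to 3.86 ± 0.30 and from 1.38 ± 0.097 to 2.33 ± 0.18 (SD, n = 3 each). Here, too, depleted and input libraries did not overlap, and the largest shift was that of Lcp9 over Lcp2, whose mean after depletion was 3.91 times its input mean in poly(A)-primed and 2.46 times in random-primed libraries.

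Over all 20 ratios of 2 members, 18 separated input from depleted libraries, 10 of 10 in poly(A)-primed and 8 of 10 in random-primed libraries. Over all pairs of 5315 genes with a mean of at least 10 counts in every group, 29.7% and 23.5% separated in the same way. The ratios share members and are not independent of each other. Each separated ratio had an exact permutation p of 0.1, which is 0.11 after Benjamini-Hochberg adjustment over the 20, so none can pass in this design. The 2 that overlapped were Lcp9 over Lcp3 and Lcp9 over Lcp4 in random-primed libraries, at 1.10 and 1.01 times their input means.

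**Figure D3:**
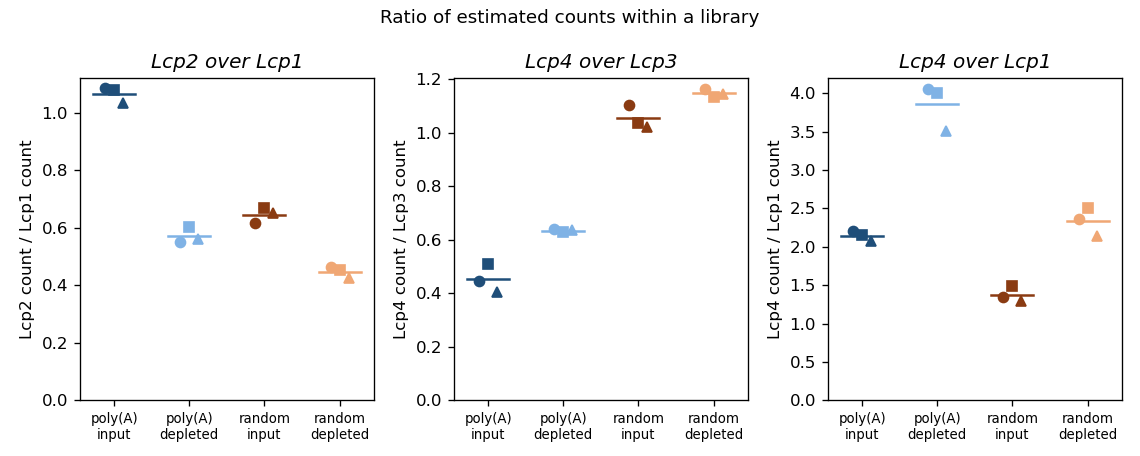
Ratio of the estimated counts of 2 genes within each library (y axes, from 0) for Lcp2 over Lcp1, Lcp4 over Lcp3 and Lcp4 over Lcp1. Points are libraries, with the shape giving the replicate number, and lines are means of 3. Lcp2 over Lcp1 goes from a mean of 1.07 to 0.571 in poly(A)-primed and from 0.645 to 0.448 in random-primed libraries.

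The spike-in RNAs, added before depletion, allowed the level after depletion to be set against that before it. Counts were divided by the sum of the spike-in counts of the same library. In poly(A)-primed libraries, Lcp2 kept 25.3% ± 4.96 (SE) of its input level and Lcp1 kept 47.3% ± 8.55. Lcp3 was at 61.7% ± 12.3, Lcp4 at 85.7% ± 18.6 and Lcp9 at 97.2% ± 27.0 (SE, 3 libraries a group). The median over 8653 protein-coding genes was 96.2%, with 10th and 90th percentiles of 64.8 and 133%. Lcp2 and Lcp1 thus lay below the 10th percentile and Lcp3 just under it.

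In random-primed libraries Lcp2 was at 44.1% ± 10.1 and Lcp1 at 63.0% ± 13.7, while Lcp3 was at 99.03% ± 24.6, Lcp4 at 107% ± 27.4 and Lcp9 at 107% ± 37.6 (SE). The median over 4451 protein-coding genes was 90.7%, with 10th and 90th percentiles of 66.7 and 111%. Input and depleted libraries were apart for Lcp1, Lcp2 and Lcp3 in poly(A)-primed libraries and for Lcp2 in random-primed libraries. These had an exact two-sided permutation p of 0.1, the smallest this design allows, and the other 6 comparisons had p from 0.3 to 0.9. These values take no account of the replicate numbers. Between same-numbered random-primed libraries, Lcp1 was at 61.5, 63.7 and 64.4%. Between same-numbered poly(A)-primed libraries, Lcp4 was at 85.6, 88.9 and 81.1%, so both were lower in 3 of 3 pairs. In random-primed libraries Lcp4 (108, 107 and 106%) and Lcp9 (101, 109 and 119%) were higher in 3 of 3 pairs. Lcp3 in random-primed and Lcp9 in poly(A)-primed libraries went both ways. An exact two-sided test over 3 pairs cannot go below p = 0.25. The order of the 5 genes by percent remaining had Lcp2 lowest, Lcp1 next and Lcp3 after it in both library types.

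**Figure D4:**
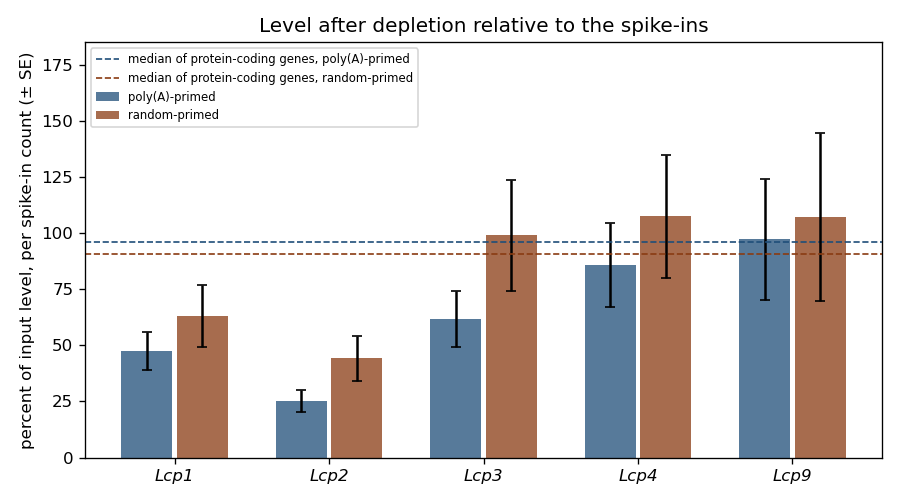
Level after depletion as a percent of the input level, from counts divided by the summed spike-in counts of the library (y axis, from 0). Bars are means of 3 depleted over means of 3 input libraries with standard errors, and dashed lines are medians over protein-coding genes, at 96.2% for poly(A)-primed and 90.7% for random-primed libraries. Lcp2 is lowest at 25.3 and 44.1%.

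Whether depletion changed the genes by different amounts in the 2 library types was tested as an interaction over all 12 libraries. The difference in log2 fold change, random-primed minus poly(A)-primed, was 1.03 ± 0.23 for Lcp2, 0.92 ± 0.25 for Lcp3, 0.65 ± 0.23 for Lcp1, 0.56 ± 0.26 for Lcp4 and 0.35 ± 0.38 for Lcp9 (SE). The median over all tested genes was 0.16, so the values relative to it ran from 0.19 to 0.87. None of the 5 was called, with adjusted p of 0.059 for Lcp2, 0.12 for Lcp3 and 0.25 to 0.77 for the others in edgeR's test. The share called in either direction was 0.0626% of 11175 genes.

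DESeq2 called 1 member in this test, Lcp2 at an adjusted p of 0.0027, beside 1.14% of its 5169 genes, and edgeR without the filter on low counts called Lcp2 at 0.0075, beside 0.29% of 15883 genes. With the replicate number as a block, edgeR called Lcp1 (adjusted p = 6e-05), Lcp2 (1.5e-08), Lcp3 (1.1e-07) and Lcp4 (0.00024), with differences of 0.57 to 1.03, but not Lcp9 (0.20). In that fit 3.47% of all tested genes were called in either direction. Genes of like length also lay above the median of all genes. The median difference was 0.38 over 2189 protein-coding genes whose longest transcript has 394 to 1065 nt, the span of the members. Lcp2 was higher than 84.6%, Lcp3 than 81.2%, Lcp1 than 69.8% and Lcp4 than 64.6% of these, while Lcp9 was near their middle at 48.1%.

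Random-primed libraries were compared with poly(A)-primed ones in input and in depleted RNA. Random-primed over poly(A)-primed log2 fold changes in input RNA were -3.65 ± 0.20 for Lcp3, -2.52 ± 0.19 for Lcp2, -2.43 ± 0.20 for Lcp4, -1.81 ± 0.27 for Lcp9 and -1.79 ± 0.18 for Lcp1 (SE). In depleted RNA they were -2.74 ± 0.22 for Lcp3, -1.89 ± 0.21 for Lcp4, -1.50 ± 0.17 for Lcp2, -1.47 ± 0.21 for Lcp9 and -1.16 ± 0.17 for Lcp1 (SE). All 5 were called lower in both, with the largest adjusted p at 4.7e-05 in input and 0.00012 in depleted RNA in edgeR's test. Over all genes, 27.6% of 8838 were called lower in input RNA and 26.6% of 11467 in depleted RNA, beside 28.3% and 29.2% called higher.

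Transcript length ran along with this comparison. In depleted RNA the median log2 fold change of protein-coding genes went from -2.34 for transcripts up to 500 nt to 1.65 for those over 5000 nt. Among 2279 genes of the members' length span the median was -1.44, and 69.2% of them were called lower. Lcp1, Lcp2, Lcp4 and Lcp9 lay between percentiles 27.9 and 62.3 of these genes. Lcp3 lay at percentile 5.92, 1.31 below their median on the log2 scale. The trend also ran within this span, so these percentiles do not match each gene closely for length. Lcp9, of 394 nt, had -1.47, where genes up to 500 nt had a median of -2.34 and a 90th percentile of -1.33. Lcp1, whose longest transcript has 1065 nt, had -1.16, where genes of 1000 to 2000 nt had a median of -0.46. Its other annotated transcript has 543 nt, and genes of 500 to 1000 nt had a median of -1.44. On which side of like-length genes Lcp1 lay thus depends on the transcript, and which one gave the reads was not tested.

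In input RNA the median of 1591 genes of this span was -1.88, and Lcp3 lay at percentile 4.90, 1.77 below it. The other 4 lay between percentiles 24.8 and 53.2. Here too the trend ran within the span, from a median of -2.91 up to 500 nt to -0.80 at 1000 to 2000 nt. Scaling by the spike-ins moved the median of all genes by 1.48 in input and 1.26 in depleted RNA on the log2 scale and turned the calls over all genes from 3354 higher and 3053 lower into 6085 higher and 499 lower in depleted RNA. Under that scaling, the members called lower were Lcp2, Lcp3 and Lcp4 in input RNA (-1.04, -2.15 and -0.94) and Lcp3 alone in depleted RNA (-1.47, adjusted p = 0.0021 in edgeR's test), and Lcp1 took the opposite sign in depleted RNA at 0.11. The part of length and of the scaling in these differences was not tested.

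**Figure D5:**
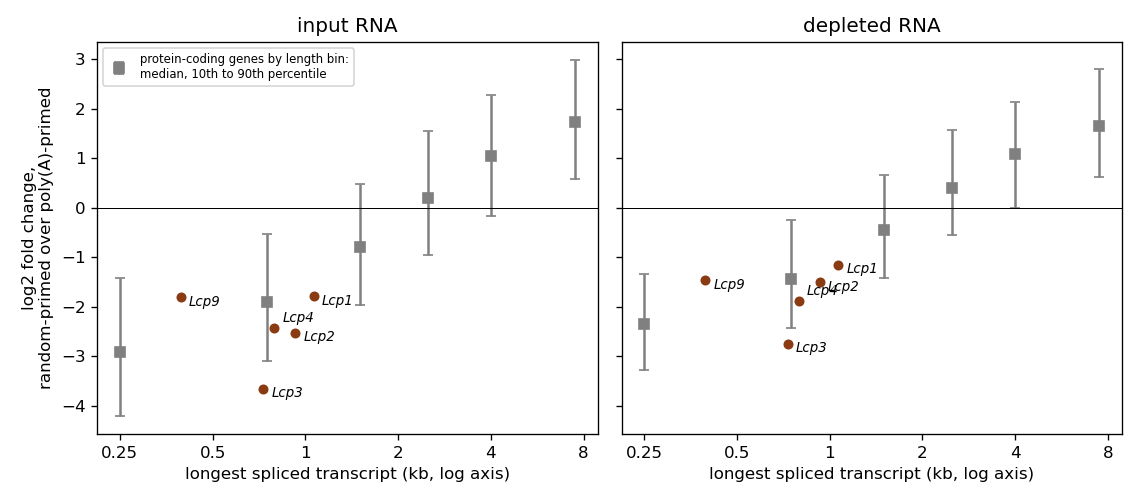
Log2 fold change of random-primed over poly(A)-primed libraries against the longest spliced transcript (kb, log axis), in input and depleted RNA. Grey squares are medians of protein-coding genes in length bins, drawn at the bin's middle, with the 10th to 90th percentile, and brown points are the 5 genes. The shorter annotated transcripts of Lcp1 to Lcp4, of 513 to 543 nt, are not drawn. Lcp3, at -3.65 and -2.74, lies lowest of the 5 in both panels.

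The replicate 3 libraries had the lowest CPM of their group for all 5 genes in all 4 groups, 20 of 20 cases. Over 5315 genes with a mean of at least 10 counts in every group, 17.8% were lowest in replicate 3 in all 4 groups. The replicate 3 library had 0.530 to 0.906 times the mean CPM of the other 2 libraries, and the lowest of these values were for Lcp9, at 0.563 in poly(A)-primed input and 0.530 in random-primed input. The median gene was at 0.992 and 0.909 times in those groups. Leaving out input replicate 3 turned the poly(A)-primed log2 fold change of Lcp9 to -0.17, and leaving out depleted replicate 1 turned it to -0.09, both from HTSeq counts and not called.

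After each group's mean was subtracted, the genes whose log2 CPM was most like that of a member over the 12 libraries were found among the same 5315 genes. For Lcp9 these were CG1208 (Pearson r = 0.99), e(y)3 (0.98) and Ugt35A1 (0.98). For Lcp4 they were CG32302 (0.99), CG3588 (0.98) and Rpn11 (0.97). For Lcp2 they were CG17839 (0.98), CG7154 (0.97) and Ugt35A1 (0.96), and for Lcp1 they were CG31775, CG42586 and Fsn, each at 0.96. For Lcp3 they were CG8547 (0.97) and the lysosomal protease genes CtsB1 and cathD, both at 0.95. Members were also alike, with r from 0.81 between Lcp1 and Lcp3 to 0.96 between Lcp2 and Lcp4. By likeness, members ran from place 5, for Lcp2 beside Lcp1, to place 423, for Lcp3 beside Lcp9. Many genes outside the family were therefore as much alike. These points share 3 RNA samples and the low replicate 3 libraries, and no p is given.

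The Lcp65A genes were far less abundant than Lcp1 to Lcp4. They were listed with adult cuticle genes of the same region, as 12 genes whose symbols start with Lcp65A or Acp65A. In poly(A)-primed input, Lcp65Ac was the highest of the 12 at 93.8 ± 13.6 CPM of HTSeq counts (SD, n = 3), against 33784 ± 3667 for Lcp3. Of the 4 listed genes that passed the filter on low counts, none was called, at a median log2 fold change of -0.02. Lcp65Ac had -0.59 ± 0.17 (SE) with an adjusted p of 0.063 in edgeR's test. A list of 6 larval epidermis and cuticle genes overlapped the 12 in Lcp65A genes such as Lcp65Ag1, and also held TwdlE and Cpr65Av. Its summed CPM was only 37.9 to 54.2 in poly(A)-primed input and 37.6 to 62.9 after depletion. Cpr65Av, the highest of the 6, alone had 38.3 ± 9.38 CPM of HTSeq counts in poly(A)-primed input (SD, n = 3). That list therefore gave little signal beside Lcp1 to Lcp4, with none of its members at 0 throughout poly(A)-primed input, 1 at 0 after depletion and 2 at 0 in random-primed input.

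Among 70 Cpr genes, which carry the same chitin-binding consensus, 28 were tested in poly(A)-primed libraries. Of these, 2 were called, both lower, beside 1.53% of all tested genes called lower. The median log2 fold change of the 28 was -0.30. Cpr49Ac was the highest, at 3911 ± 281 CPM of HTSeq counts before and 2845 ± 495 after depletion (SD, n = 3 each), beside 7443 ± 1093 and 2228 ± 273 for Lcp2. It had -0.65 ± 0.17 (SE) with an adjusted p of 0.047 in edgeR's test. Cpr78E had -0.37 ± 0.16 with an adjusted p of 0.21. Cpr64Aa, at only 5.94 CPM in input, had the largest called decrease, at -2.80 ± 0.42 and an adjusted p of 0.0021. In random-primed libraries none of 27 tested Cpr genes was called.

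Of the Tweedle genes, a second family of cuticle proteins, 2 of 26 were tested and none was called. Of 13 genes for pupal, adult and ecdysone-dependent cuticle, 3 were tested and none was called, with Pcp, a pupal cuticle protein, at -0.45 ± 0.14 (SE) and an adjusted p of 0.088 in edgeR's test. A list of 22 genes for chitin synthesis and assembly also held Alas, which is not a chitin gene. Of these 22, 2 were called lower, obst-A and Alas, and none higher, beside 1.53% of all tested genes called lower. The gene obst-A, for a chitin-binding matrix protein, was at -2.89 ± 0.20 with an adjusted p of 3e-06 in edgeR's test. Alas, the first enzyme of haem synthesis, was at -3.35 ± 0.29 with an adjusted p of 2.4e-05. In random-primed libraries obst-A was again called lower (-1.72, adjusted p = 0.00039 in edgeR's test) and Alas was not called (-1.03, 0.12). None of 15 tested ecdysone-response genes was called, with ImpL2, a secreted insulin-binding protein, at -0.57 ± 0.15 and an adjusted p of 0.043.

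Marker genes of other tissues were set beside these values. Of 6 salivary gland glue genes, 3 were called lower after depletion in poly(A)-primed libraries, beside 1.53% of all tested genes. The list's summed CPM ran from 79745 to 107993 in input and from 65360 to 105232 in depleted libraries. Sgs3 had -2.44 ± 0.22 (SE) with an adjusted p of 2.7e-05 in edgeR's test. The 6 fat body markers summed to 30337 to 34014 CPM before and 27331 to 33932 after depletion, with Lsp1beta called lower at -1.16. Of the muscle markers none was called, and of 6 midgut markers Jon99Cii was called lower at -1.98. In random-primed libraries 3 glue genes and Jon99Cii were also called lower. Lsp1beta was not called there (-0.22, adjusted p = 0.77 in edgeR's test). The part of tissue composition in the changes of Lcp1 and Lcp2 was not tested, and input and depleted libraries were made from the same 3 RNA samples.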

How the data were processed

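The 12 libraries were measured by RNA sequencing. Per the study's methods, the authors trimmed the reads and estimated counts with Kallisto on BDGP6 (Ensembl) transcripts and introns in all libraries, with strand set. The deposited estimated counts need not be whole and were rounded for testing. The other deposited values per transcript length (TPM of spliced transcripts) were rescaled here over non-rRNA genes. Counts of uniquely mapped reads from STAR and HTSeq were deposited for the 6 libraries with poly(A) priming, and 7.81 to 9.88% of reads stood in lines that name no gene and were left out. A deposited table of the authors' own fold changes and p-values was not used.

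Gene totals were 3542229 to 6306874 in the HTSeq counts and 3503819 to 16889144 in the Kallisto estimated counts. Each comparison was fitted across all genes with edgeR 4.0.16 in R 4.3.3 (TMM, filterByExpr, robust quasi-likelihood, Benjamini-Hochberg, called at adjusted p under 0.01), with spike-ins left out and, except in the poly(A)-primed depletion fits, rRNA genes left out. CPM in the text is not TMM-scaled, so CPM ratios differ from fitted fold changes. DESeq2 1.42.0, RLE and spike-in scaling, no filter, a threshold of 0.05, spliced counts alone, rRNA left out, a replicate block and leaving out each library were the alternatives. Fits were tested on simulated data. Permutation tests used scipy 1.17.1. Gene positions come from Ensembl annotation 115 (BDGP6.54), a later release on the assembly the authors used.

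The study's methods state that each of the 3 RNA samples gave an input and a depleted library, and the titles number the libraries 1 to 3. Deviations from group means correlated between same-numbered libraries at 0.26, 0.57 and 0.64 for random-primed depletion, 0.34, 0.61 and 0.69 for library type in depleted RNA and 0.12, 0.28 and 0.44 in input RNA. For poly(A)-primed depletion (HTSeq) they were 0.04, 0.31 and 0.57, so there the pairing rests on the methods and not on the first pair. Number 1 was also not set apart in other comparisons. In random-primed depletion, depleted replicate 1 correlated at 0.294 with input replicate 2 and 0.259 with input replicate 1. For library type in input RNA, poly(A)-primed replicate 1 correlated at 0.125 with random-primed replicate 2 and 0.115 with random-primed replicate 1. The main fits, the spike-in percentages and the permutation tests took no account of the numbers. They were treated as pairs only in the fits with the replicate block and in the same-numbered ratios. Blocked values stand beside results whose call they change.

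The members and gene lists were chosen with earlier results of these data known. Named beside the members were Lcp1Psi, the nearest protein-coding genes, the 3 genes most like each member, and from each list the 3 highest genes and the largest called change in each direction, of which the text gives a selection. Without the block, standard errors and p-values cover the spread between libraries of these 3 pools. The same pools stand on both sides, and their libraries were counted as separate. With the block, they cover only the spread left after the replicate number is taken out. Standard errors of edgeR fold changes were worked back from the fold change and the F statistic of its test.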

Additional observations from a re-analysis of the deposited data

Results flagged for a closer look

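The change by depletion differed between library types for 4 members when the replicate number was a block in edgeR's interaction test, a fit in which 3.47% of 11175 genes were called in either direction (388, against 7 without the block). The difference, random-primed minus poly(A)-primed on the log2 scale, was 0.65 for Lcp1, 1.03 for Lcp2, 0.93 for Lcp3 and 0.57 for Lcp4. The test was against no difference, while the median over all tested genes in that fit was 0.16. Without the block, protein-coding genes of the members' length span had a median of 0.38. Lcp1 was higher than 69.8% and Lcp4 than 64.6% of those genes. Without the block none of them passed the threshold of 0.01, with adjusted p of 0.25, 0.059, 0.12 and 0.40 in edgeR's test. In same-numbered pairs Lcp3 was lower after depletion in 3 of 3 poly(A)-primed pairs and higher in 3 of 3 random-primed pairs.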

How the results depend on the processing

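Of 425 member fold changes under alternatives, 385 kept their direction and side of the threshold, 12 passed it anew, 20 no longer passed and 8 turned sign. With spike-in scaling, 1 member was called in each poly(A)-primed depletion fit, 0 in random-primed depletion, 1 for library type in depleted RNA and 3 in input RNA. The same scaling turned Lcp9 to -0.024 (HTSeq) and -0.041 (Kallisto) in poly(A)-primed depletion, Lcp3 to -0.014 in random-primed depletion and Lcp1 to 0.11 for library type in depleted RNA. DESeq2 called 2 members in random-primed depletion and 1 in the interaction, and without a filter 1 was called in the interaction and 3 in poly(A)-primed depletion (HTSeq), where Lcp3 joined at an adjusted p of 0.0093 in edgeR. RLE normalization, spliced counts alone, rRNA left out (for the Kallisto fit chosen after seeing the data) and a threshold of 0.05 left every count of called members as it was.

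With the replicate block, 3 members were called in each depletion fit, 4 in the interaction and 5 for library type, the last as without it. The cause of these differences between fits was not tested. The block moved the calls over all genes from 11 higher and 146 lower to 379 and 757 in poly(A)-primed depletion (HTSeq), from 1 and 157 to 123 and 414 in random-primed depletion and from 3 and 4 to 337 and 51 in the interaction. In the same order, DESeq2 gave 23 and 208, 3 and 324, and 28 and 31, spike-in scaling 0 and 45, 0 and 98, and 0 and 7, no filter 57 and 299, 5 and 178, and 38 and 8, and a threshold of 0.05 95 and 367, 7 and 248, and 36 and 15. For the interaction, the all-gene median moved by -0.16 with RLE and with DESeq2, by -0.24 with spike-in scaling and by 0.23 without a filter, and without a filter by 0.12 in random-primed depletion, 0.11 for library type in depleted RNA and -0.29 in input RNA.

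Leaving out 1 library gave 1 to 2 called members in poly(A)-primed depletion from either kind of count and 0 to 1 in random-primed depletion, with 5 for library type and 0 for the interaction throughout. Lcp9 ranged from -0.17 to 0.18 (HTSeq) and from -0.20 to 0.16 (Kallisto) in poly(A)-primed depletion. With protein-coding counts alone in the denominator, random-primed CPM rose to 4033 for Lcp1, 2594 for Lcp2, 5247 for Lcp3 and 5543 for Lcp4 in input and to 2847 for Lcp1 in depleted RNA, since the total is smaller. Levels relative to spike-ins and HTSeq to Kallisto ratios moved by less than their spread in every alternative. Depth limits Lcp9 most, with 27 to 70 counts a library in random-primed input.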
